A study of Mus musculus with 6 samples.

Results

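Kcnj8, Kcne3, P2ry1, Tiam1, Mcc and Ehd3 are 6 of the 19349 genes counted in single liver non-parenchymal cells, the liver's cells other than hepatocytes, from mice with nonalcoholic steatohepatitis (NASH). They were chosen by an earlier analysis of these same libraries, in which their summed counts in endothelial cells differed between vehicle- and ginkgetin-treated mice. Their values in that contrast are therefore given as a description, with no test. Endothelial subsets, other cell classes and related genes were compared with tests, but the genes and lists were chosen with earlier results of these libraries known, so these tests are not independent support. The question was whether the endothelial difference in these genes was also present when the mix of sinusoidal, pericentral and vascular endothelial cells was held fixed.

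Male C57BL/6J mice, 8 weeks old at the start, were fed a high-fat diet (HFD) for 24 weeks, which gives the NASH model shared by both groups. In the last 8 weeks they received DMSO vehicle or ginkgetin, a plant biflavone, at 10 mg/kg/day by the intragastric route. There were 6 libraries of the 10x Genomics type, 3 vehicle and 3 ginkgetin, and mice on other diets were not analysed here. The extraction text in the labels names kits for total RNA in place of a droplet method, so that the counts are UMIs rests on the sample descriptions and the study's methods. Nothing in the labels says whether a library came from 1 animal, so p-values measure the spread between libraries, which may be partly technical.

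Sinusoidal endothelial cells line the liver's capillaries with a fenestrated wall that lacks a continuous basement membrane, and they clear molecules from blood by endocytosis. Their gene expression changes along the lobule from the portal to the central vein, and the cells next to the central vein secrete Wnt ligands that act on hepatocytes. Vascular endothelial cells line the larger portal and central vessels. Of the genes described here, Kcnj8 encodes Kir6.1, the pore of a potassium channel that opens when ATP falls, and Kcne3 encodes a small subunit that modifies voltage-gated potassium channels. P2ry1 encodes a receptor for ADP that couples to Gq proteins, and Tiam1 an exchange factor that loads the GTPase Rac1 with GTP. Mcc encodes a cytoplasmic protein that binds beta-catenin, and Ehd3 an ATPase that shapes membranes of the recycling endosome.

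The tables held 33168 barcodes and between 13128697 and 61796882 unique molecular identifiers (UMIs) per library. After filtering, 27544 cells remained, and 7968 of them passed a gate on the mean level of 12 endothelial markers. Endothelial-like cells made up 9.72% to 20.4% of the vehicle libraries and 31.2% to 48.8% of the ginkgetin libraries. Replicate 3 of each group was deeper, with a median of 7677.5 and 7647 UMIs per endothelial-like cell against 2278 to 2838 in the other 4 libraries. It also shared 0 or 1 barcodes with replicates 1 and 2 of either group, while libraries within these sets shared 10 to 85. The summed level of the 12 markers in endothelial-like cells ran from 9865 to 13856 CPM (UMI counts scaled to a common library total) in vehicle and from 15147 to 20139 CPM in ginkgetin libraries. The sum of 8 macrophage markers in the same cells ran from 174 to 311 CPM and from 51.0 to 152 CPM, respectively, and the part of either difference in the results was not tested.

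The gate on subset markers, none of which is one of the 6 genes, gave 5432 sinusoidal, 1804 pericentral and 648 vascular cells, with 84 cells in no subset. Cells were selected on these same markers, so the sums below describe the gate and are no check of the subset names. The 6 pericentral markers summed to 1905 CPM in vehicle pericentral cells against 230 CPM in sinusoidal ones, and the 8 vascular markers to 2612 CPM in vascular cells against 389 CPM in sinusoidal ones. The scores are continuous, and 939 cells lay near the pericentral threshold and 857 near the vascular threshold. When cells were clustered instead, without the 6 genes, 4 of 6 endothelial clusters drew between 98.6% and 99.3% of their cells from a single group, and the others drew 69.3% and 68.3%. The clusters also split by replicate: those of 589 and 975 cells came wholly from the replicate 3 libraries, and the rest held 0 of their cells.

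Kcnj8 lies on chromosome 6 (chr6:142564837-142571614, minus strand, GRCm38) and spans 6.8 kb. The next gene on that strand is Abcc9, which encodes SUR2, the regulatory subunit that pairs with Kir6.1, at a distance of 16.2 kb with 0 annotated genes between them. Kcne3 lies at chr7:100176502-100184869 on the plus strand, P2ry1 at chr3:61002795-61008982 on the plus strand, Tiam1 at chr16:89787111-90143769 on the minus strand, and Ehd3 at chr17:73804134-73832094 on the plus strand. Antisense annotations overlap Kcne3 (Gm34821, over 8368 bases) and P2ry1 (Gm37035, over 992 bases), a pseudogene, Gm2805, overlaps 514 bases of Tiam1, and an antisense gene, 5330439B14Rik, overlaps 11868 bases of Abcc9. Whether strand was used in the counting is not given in the sources used here, so reads of these pairs cannot be told apart.

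Promoters are shown for the 2 channel genes that were low together in ginkgetin, for Abcc9, whose pattern was most like that of Kcnj8, and for Tiam1, which was higher in ginkgetin. Each is the 250 bases before a RefSeq transcript start (GRCm38.p6), written 5′ to 3′ on the gene's strand. Capitals mark matches on either strand to CACCC, a core bound by Krüppel-like factors, or to TGANTCA. The latter is a loose form of the AP-1 motif that allows any base at its centre, which was A or T in the matches shown. The windows are chr6:142571615-142571864 for Kcnj8 and chr6:142702275-142702524 for Abcc9, both minus strand, chr7:100176420-100176669 (plus) for the first Kcne3 start and chr16:89974700-89974949 (minus) for the first Tiam1 start. All Tiam1 windows used lie inside the gene, so the sequence before its annotated 5′ end at 90143769 was not examined. The first Kcne3 window runs over the annotated gene start at 100176502. The starts used for Kcne3 and P2ry1 were not in a transcript of the gene annotation (GENCODE).
Kcnj8: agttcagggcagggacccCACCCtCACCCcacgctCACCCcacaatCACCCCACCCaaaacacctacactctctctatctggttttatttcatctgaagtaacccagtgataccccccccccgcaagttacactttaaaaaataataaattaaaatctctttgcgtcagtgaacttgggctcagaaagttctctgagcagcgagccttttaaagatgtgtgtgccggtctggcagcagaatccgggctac
Abcc9: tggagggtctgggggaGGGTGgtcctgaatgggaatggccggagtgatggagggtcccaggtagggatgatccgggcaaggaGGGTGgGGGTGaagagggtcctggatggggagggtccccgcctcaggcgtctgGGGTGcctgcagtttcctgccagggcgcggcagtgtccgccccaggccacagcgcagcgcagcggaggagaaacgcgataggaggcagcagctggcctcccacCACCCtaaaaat
Kcne3: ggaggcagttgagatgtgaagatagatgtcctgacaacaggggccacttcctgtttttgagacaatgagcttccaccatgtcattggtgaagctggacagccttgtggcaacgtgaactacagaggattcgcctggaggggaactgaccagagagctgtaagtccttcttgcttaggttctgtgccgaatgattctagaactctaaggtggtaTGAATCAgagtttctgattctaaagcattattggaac
Tiam1: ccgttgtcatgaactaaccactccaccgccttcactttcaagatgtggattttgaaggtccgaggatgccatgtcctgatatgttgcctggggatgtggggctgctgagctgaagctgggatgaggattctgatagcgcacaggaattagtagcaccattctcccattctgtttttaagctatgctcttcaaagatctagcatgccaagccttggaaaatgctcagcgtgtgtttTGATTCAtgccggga
The Kcnj8 and Abcc9 windows each held 5 matches to CACCC. Of 32851 promoters of the same length, 52.0% held at least 1 such match and 0.667% held 5 or more. The first Kcne3 and the first Tiam1 windows each held 1 match to TGANTCA, as did 6.75% of all promoters, although Kcne3 was lower and Tiam1 higher in ginkgetin. The second Kcne3 and Tiam1 windows, not shown, held 0 matches to TGANTCA, with 3 and 1 matches to CACCC, and P2ry1 held 1 and Ehd3 0 matches to CACCC. Other motifs were searched on both strands and found in 0 of the 7 promoters of these genes. Of all promoters, 12.4% held TATAAA, letters of the core promoter box, and 9.99% held AGATAA, which binds the zinc finger factors of haematopoietic and endothelial cells. The forkhead letters GTAAACA were in 3.17%, the letters CCGGAA of the Ets family in 12.03%, and the E-box CACGTG in 6.02%. A match describes letters only. RefSeq windows were matched for 5 of the 6 genes, and none was used for Mcc.

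Of the 6 genes Kcnj8, the channel pore, differed most in endothelial-like cells. It measured 96.6, 53.8 and 125 CPM in vehicle replicates 1, 2 and 3, and 5.85, 6.44 and 4.22 CPM in the ginkgetin replicates. The lowest vehicle library stood above every ginkgetin library, and the means of 91.7 ± 35.7 and 5.502 ± 1.15 CPM (SD, n = 3 each) were 16.7-fold apart. In the edgeR fit over 10503 genes the log2 fold change was -4.16 (SE 0.37). Among cells thinned to 1000 UMIs, 7.49% ± 2.83 held a Kcnj8 UMI in vehicle and 0.560% ± 0.12 in ginkgetin (SD, n = 3 each), and without thinning the shares were 23.2% and 1.92%. B cell-like cells, which should lack the gene, gave 0.147% and 0.131% after thinning. Their median depth ran from 1875 to 3724.5 UMIs per library and that of endothelial-like cells from 2278 to 7677.5.

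Kcne3 followed the same direction. Vehicle replicates 1, 2 and 3 gave 62.8, 49.95 and 75.9 CPM, and the ginkgetin replicates gave 4.87, 6.66 and 2.39 CPM. The groups did not overlap, and the means of 62.9 ± 12.96 and 4.64 ± 2.14 CPM (SD, n = 3 each) were 13.5-fold apart, with a fitted log2 fold change of -3.86 (SE 0.45). In ginkgetin the thinned share of cells with a Kcne3 UMI was 0.438%, against 4.5% in vehicle and 0.0985% to 0.178% in B cell-like cells.

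P2ry1 and Tiam1 went the other way. P2ry1 measured 12.6, 14.7 and 13.9 CPM in the vehicle replicates and 64.0, 70.7 and 71.0 CPM in the ginkgetin replicates. The spread within each group was small, 13.8 ± 1.07 and 68.6 ± 3.96 CPM (SD, n = 3 each), and the means were 4.98-fold apart (log2 fold change 2.18, SE 0.18). Tiam1 measured 5.05, 9.61 and 14.8 CPM in vehicle and 68.9, 71.7 and 80.3 CPM in ginkgetin. The vehicle libraries differed among themselves by more than the ginkgetin libraries in proportion, and the means of 9.82 ± 4.89 and 73.6 ± 5.95 CPM (SD, n = 3 each) were 7.50-fold apart (log2 fold change 2.81, SE 0.31). The thinned share of cells with a UMI was 1.44% and 6.68% for P2ry1 and 0.963% and 6.98% for Tiam1. In B cell-like cells it was 0.0438% and 0.096% for P2ry1, and 0.0211% and 0.265% for Tiam1.

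Mcc and Ehd3 were also higher in ginkgetin. Mcc measured 15.9, 23.7 and 30.2 CPM in the vehicle replicates and 79.6, 78.6 and 122 CPM in the ginkgetin replicates, with means of 23.3 ± 7.18 and 93.5 ± 24.98 CPM (SD, n = 3 each). Replicate 3, the deeper library, was the highest of its group in both groups for this gene, as it was for Tiam1. Ehd3 measured 950, 1379 and 1075 CPM in vehicle and 3655, 3685 and 3763 CPM in ginkgetin, a 3.26-fold difference of means of 1135 ± 220 and 3701 ± 55.5 CPM (SD, n = 3 each). The fitted log2 fold changes were 1.87 (SE 0.22) for Mcc and 1.55 (SE 0.30) for Ehd3. Over cells thinned to 1000 UMIs, an Ehd3 UMI was present in 60.8% ± 7.29 of vehicle and 93.5% ± 1.55 of ginkgetin endothelial-like cells; without thinning the shares were 88.6% and 99.3%. B cell-like cells gave 1.23% and 6.96% after thinning.

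All 6 genes had non-overlapping groups in endothelial-like cells, where 17% of the 12149 genes with a mean of at least 1 CPM did so. In that fit 50 of 10503 genes (0.476%) were called at an adjusted p under 0.05 and a fold over 2, and with the replicate number as a block 413 of 11195 (3.69%) were called. Since these values chose the genes, nothing is read from either share.

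**Figure D1:**
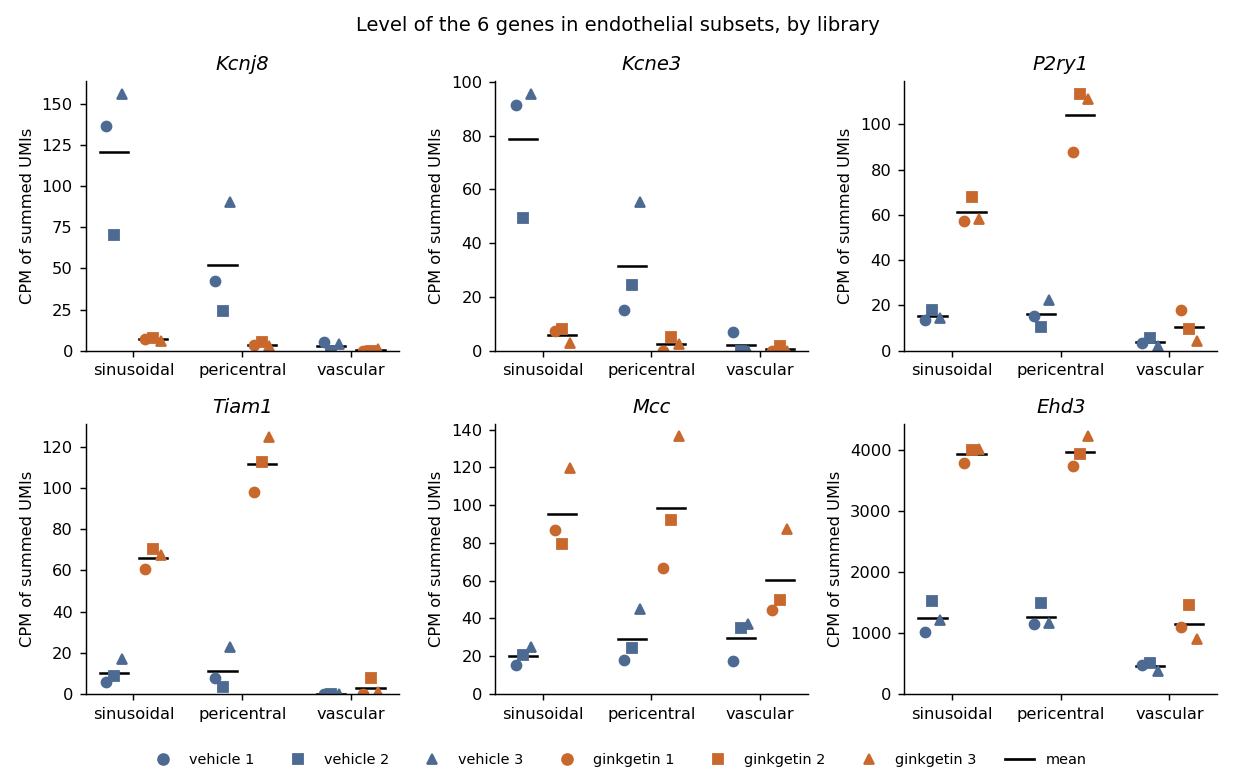
Level of each gene in CPM of summed UMIs (y axis, linear from 0) in sinusoidal, pericentral and vascular endothelial cells (x axis), with 1 point per library, vehicle in blue and ginkgetin in orange, and a black bar for the mean of 3 libraries. In sinusoidal cells Kcnj8 and Kcne3 are at 121 and 78.7 CPM in vehicle and 6.99 and 5.995 CPM in ginkgetin, the other 4 genes are higher in ginkgetin, and in vascular cells only Mcc and Ehd3 separate the groups.

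Within subsets the same directions were seen. In sinusoidal cells Kcnj8 measured 136, 70.1 and 156 CPM in the vehicle replicates and 7.18, 7.92 and 5.86 CPM in the ginkgetin replicates. In pericentral cells it measured 42.0, 24.3 and 90.4 CPM against 3.51, 5.05 and 2.61 CPM. The 2 groups stayed apart in these subsets, and the log2 ratio of the means was -4.11 in sinusoidal and -3.81 in pericentral cells. Vascular cells held 5 Kcnj8 UMIs in all vehicle libraries and 1 in all ginkgetin libraries, too few for a ratio to be read.

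Kcne3 measured 91.3, 49.2 and 95.6 CPM in vehicle sinusoidal cells and 7.18, 8.08 and 2.72 CPM in ginkgetin sinusoidal cells. Pericentral cells gave 15.3, 24.3 and 55.3 CPM against 0, 5.05 and 2.61 CPM, where the count of 0 in ginkgetin replicate 1 allows up to 3.51 CPM. The log2 ratios of the means were -3.71 and -3.63. In vascular cells 4 and 2 Kcne3 UMIs were counted in all.

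For P2ry1 the sinusoidal means were 15.3 ± 2.34 and 61.2 ± 5.78 CPM, and the pericentral means 16.1 ± 6.13 and 104 ± 14.3 CPM (SD, n = 3 each). Tiam1 behaved likewise, at 10.3 ± 5.82 and 66.2 ± 4.87 CPM in sinusoidal and 11.2 ± 10.1 and 112 ± 13.3 CPM in pericentral cells (SD, n = 3 each). The log2 ratios were thus 1.997 and 2.69 for P2ry1, and 2.68 and 3.32 for Tiam1, larger in pericentral than in sinusoidal cells for both genes. Vascular cells held 0 Tiam1 UMIs in the 3 vehicle libraries, which allows up to 5.18, 17.3 and 6.20 CPM, and 9 in the ginkgetin libraries. P2ry1 counted 4 and 16 UMIs there, and its groups overlapped.

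Mcc was higher in ginkgetin in all 3 subsets. Its means were 20.4 and 95.4 CPM in sinusoidal, 29.1 and 98.6 CPM in pericentral, and 29.7 ± 10.9 and 60.6 ± 23.4 CPM in vascular cells (SD, n = 3 each for the last pair), with log2 ratios of 2.23, 1.76 and 1.03. Ehd3 had means of 1254 and 3939 CPM in sinusoidal and 1269 and 3976 CPM in pericentral cells, a log2 ratio of 1.65 in both. In vascular cells Ehd3 measured 470, 515 and 372 CPM in vehicle and 1093, 1463 and 907 CPM in ginkgetin, with a log2 ratio of 1.35. The groups of all 6 genes did not overlap in sinusoidal or in pericentral cells, against 16.1% and 14.8% of all genes, and those of 2 of 6 did not overlap in vascular cells, against 9.28%. These are again the libraries that chose the genes.

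The mix of subsets itself was compared next. The sinusoidal share of endothelial-like cells was 70.5% ± 4.46 in vehicle and 66.3% ± 7.54 in ginkgetin libraries (SD, n = 3 each), with a two-sided exact permutation p of 0.50 (adjusted 0.50). For the pericentral share, 17.4% ± 4.98 stood against 26.4% ± 6.34 (SD, n = 3 each), and the exact permutation p was 0.20 (adjusted 0.45). The vascular share was 10.2% ± 2.63 against 6.69% ± 3.50 (SD, n = 3 each), at an exact permutation p of 0.30 (adjusted 0.45). With 1 library left out the vascular difference ran from -4.95 to -1.49 points, the last without ginkgetin replicate 1, and the pericentral one from 5.67 points, without ginkgetin replicate 3, to 11.98. Paired by replicate number, the pericentral share was higher in ginkgetin in all 3 pairs (20.8% and 25.7%, 19.7% and 20.4%, 11.7% and 33.0%), an order the permutation does not use. With groups of 3 this test cannot go below 0.10, and adjustment was over the 3 subsets. Among replicates 1 and 2 the differences were 2.08 points for sinusoidal, 2.81 for pericentral and -3.44 for vascular cells, and in replicate 3 they were -16.8, 21.3 and -3.63 points. The larger pericentral share in ginkgetin was therefore mostly that of replicate 3, and the sinusoidal difference changed sign between the sets.

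With the mix fixed at the mean of the 6 libraries (69.3% sinusoidal cells), the difference in each gene kept the direction it had at the measured mix. Without replicate 3 the fixed-mix values were -3.68 for Kcnj8, -3.17 for Kcne3, 2.23 for P2ry1, 3.49 for Tiam1, 2.05 for Mcc and 1.59 for Ehd3. For Kcnj8 the log2 ratio of means over all 6 libraries was -4.07 at the measured mix and -4.07 at the fixed mix. Kcne3 gave -3.67 and -3.69, Mcc 2.07 and 2.01, and Ehd3 1.68 and 1.64. The values moved most for P2ry1, from 2.30 to 2.19, and for Tiam1, from 3.01 to 2.88. At this mix and over all 6 libraries each of these shifts was smaller than the SD of the libraries' log2 levels at the fixed mix, which was 0.49 for Kcnj8, 0.65 for Kcne3, 0.13 for P2ry1, 0.61 for Tiam1, 0.41 for Mcc and 0.19 for Ehd3. For P2ry1 the shift was larger than that SD at the vehicle mix (-0.142 against 0.131), without vehicle replicate 1 (-0.109 against 0.0948), without vehicle replicate 2 (-0.143 against 0.141) and without ginkgetin replicate 2 (-0.143 against 0.102). Over all alternative mixes, gates and filters, the largest distance between the 2 kinds of ratio was 0.0955 for Kcnj8, 0.14 for Kcne3, 0.20 for P2ry1 and for Tiam1, 0.0792 for Mcc and 0.0525 for Ehd3, all on the log2 scale. The fixed mix covers only subsets that the gates separate, and a difference in states within a subset cannot be told apart from a difference in every cell.

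**Figure D2:**
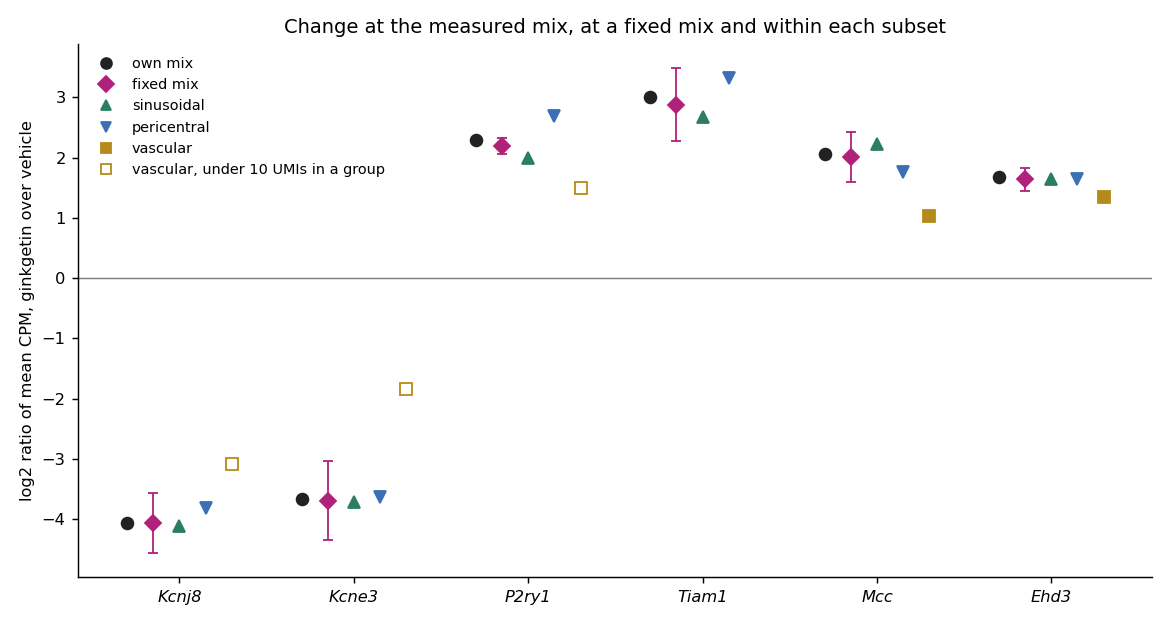
Log2 ratio of mean CPM, ginkgetin over vehicle (y axis), for each gene (x axis), at each library's own subset mix (black), at a fixed mix (magenta, bars are the SD of log2 levels over libraries) and within each subset. The black and magenta points are farthest apart for Tiam1, at 3.01 and 2.88, and open squares mark vascular ratios with under 10 UMIs in a group.

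Subset against subset, a comparison that did not choose the genes, was tested within libraries by edgeR's quasi-likelihood test with the library as a block. Kcnj8 was lower in pericentral than in sinusoidal cells (log2 fold change -1.26, SE 0.15, adjusted p = 1.81e-07), as was Kcne3 (-1.40, SE 0.23, adjusted p = 3.54e-05). These 2 were called and the other 4 were not, against a background of 1.36% of 10787 genes called in either direction and 0.593% called lower. P2ry1 and Tiam1 were higher in pericentral cells by less than the fold threshold (log2 0.74, SE 0.097, adjusted p = 1.05e-06, and 0.73, SE 0.092, adjusted p = 3.86e-07). Mcc (0.14, adjusted p = 0.512) and Ehd3 (-0.01, adjusted p = 0.981) did not pass the test, and the 95% limits of their difference, from the SE, were -0.04 to 0.32 and -0.08 to 0.07 on the log2 scale. Without vehicle replicate 1 neither Kcnj8 (-0.95, adjusted p = 0.000243) nor Kcne3 (-0.85, adjusted p = 0.0176) passed the fold threshold.

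Over all libraries 5 of the 6 genes were called lower in vascular than in sinusoidal cells. The edgeR log2 fold change was -4.89 (SE 0.32) for Kcnj8, -4.29 (SE 0.40) for Kcne3, -2.77 (SE 0.26) for P2ry1, -4.00 (SE 0.34) for Tiam1 and -1.62 (SE 0.12) for Ehd3, with adjusted p from 9.17e-12 to 5.68e-09. The share of genes called lower was 4.58% of 9738. Vascular cells of the vehicle and ginkgetin libraries held 5 and 1 Kcnj8 UMIs and 4 and 2 Kcne3 UMIs, so the size of these differences is uncertain. The value for Tiam1 rests on 9 vascular UMIs, 8 of them in ginkgetin replicate 2, and without that library it was -6.01. Vehicle vascular cells held 0 Tiam1 UMIs and the gene could not be tested in vehicle libraries alone, so its call rests on the ginkgetin libraries, where it is high. For Kcne3 it was -4.90 without vehicle replicate 1 and -3.60 without vehicle replicate 3. Mcc did not pass the test (-0.26, SE 0.16, adjusted p = 0.253). Against pericentral cells the pooled log2 fold changes were -3.60, -2.77, -3.49, -4.68 and -1.61 in the same order, where 5.30% of 8779 genes were called lower. Of these genes only Ehd3 had enough counts to be tested in each group alone: Kcnj8 and Kcne3 passed the filter in vehicle libraries alone but not in ginkgetin ones, and P2ry1 and Tiam1 in ginkgetin libraries alone but not in vehicle ones, so each passed in the group where it is high. The count of 5 called genes is therefore no support, and the differences of these 4 genes hold for that group only. Without vehicle replicate 3 Kcne3 was not called there (-1.75, adjusted p = 0.0790), and without vehicle replicate 1 it was at -3.91. Tiam1 was at -6.60 there without ginkgetin replicate 2 and at -4.01 without ginkgetin replicate 3. Mcc was lower there by 0.50 (adjusted p = 0.0204), under the fold threshold. The 12 endothelial markers also summed to less in vascular cells, at 7354 against 12225 CPM in vehicle libraries, and their part in these differences was not tested.

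The pericentral excess of P2ry1 and Tiam1 passed the test in ginkgetin libraries alone and not in vehicle libraries alone. Fitted in those alone, the pericentral excess was 0.80 (SE 0.088, adjusted p = 5.89e-06) for P2ry1 and 0.77 (SE 0.084, adjusted p = 5.44e-06) for Tiam1. In vehicle libraries alone it was 0.13 (SE 0.36, adjusted p = 0.950) and 0.20 (SE 0.45, adjusted p = 0.937), where the pericentral cells held 24 and 16 UMIs of these genes. In vehicle libraries Kcnj8 and Kcne3 were called lower in pericentral cells (-1.33, adjusted p = 5.20e-07, and -1.59, adjusted p = 6.20e-06), where 1% of 8501 genes were called. In ginkgetin libraries the values were -0.91 (SE 0.33, adjusted p = 0.124) and -0.80 (SE 0.44, adjusted p = 0.381), which did not pass, where 1.79% of 10624 genes were called. Vascular against sinusoidal cells, Kcnj8, P2ry1 and Ehd3 were called lower in both groups fitted alone, Kcne3 in vehicle and Tiam1 in ginkgetin, where 9.15% and 9.75% of genes were called. Vascular cells held only 1 Kcnj8 UMI in ginkgetin (log2 -3.62, SE 1.01). In vehicle they held 4 P2ry1 UMIs (log2 -2.14, SE 0.62) and 4 Kcne3 UMIs, so no size is read from these calls. Vascular against pericentral cells, 3 genes were called in vehicle (Kcnj8, Kcne3 and Ehd3, with 9.49% of all genes) and 3 in ginkgetin (P2ry1, Tiam1 and Ehd3, with 11.4%), since the others of these 5 had too few counts to be tested. The differences between the groups' gradients were not tested. These single-group fits were chosen after seeing the data.

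Cells outside the vascular gate were also split into 5 bins by their pericentral minus periportal marker score, bin 1 being the most periportal. In vehicle libraries Kcnj8 went from 35.7, 33.4 and 134 CPM in bin 1 to its highest values of 146, 89.5 and 180 CPM in bin 4, bin 4 and bin 3, and stood at 84.6, 29.7 and 58.8 CPM in bin 5. Kcne3 showed a similar shape from a lower start, with 3.97, 16.7 and 32.2 CPM in bin 1 and 104, 123 and 160 CPM in bin 4. Both genes were thus highest in the middle of the score in vehicle libraries and at 12.7 CPM or less in every bin of the ginkgetin libraries.

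In ginkgetin libraries Tiam1 went from 17.8, 33.1 and 45.1 CPM in bin 1 to 104, 115 and 133 CPM in bin 5, and P2ry1 from 38.5, 48.1 and 44.4 CPM to 87.4, 132 and 110 CPM. In the vehicle libraries Tiam1 was also lowest in bin 1, at 0, 0 and 4.84 CPM, and its highest values were 9.54 CPM in bin 2, 17.5 CPM in bin 3 and 29.7 CPM in bin 3. Ehd3 ran from 3573 to 4508 CPM over all bins of the ginkgetin libraries. In the vehicle libraries it was lower in bin 4 than in bin 2 each time, at 904 against 1218, 1298 against 1762 and 699 against 1322 CPM. Bins were added after the data had been seen and carry no test.

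**Figure D3:**
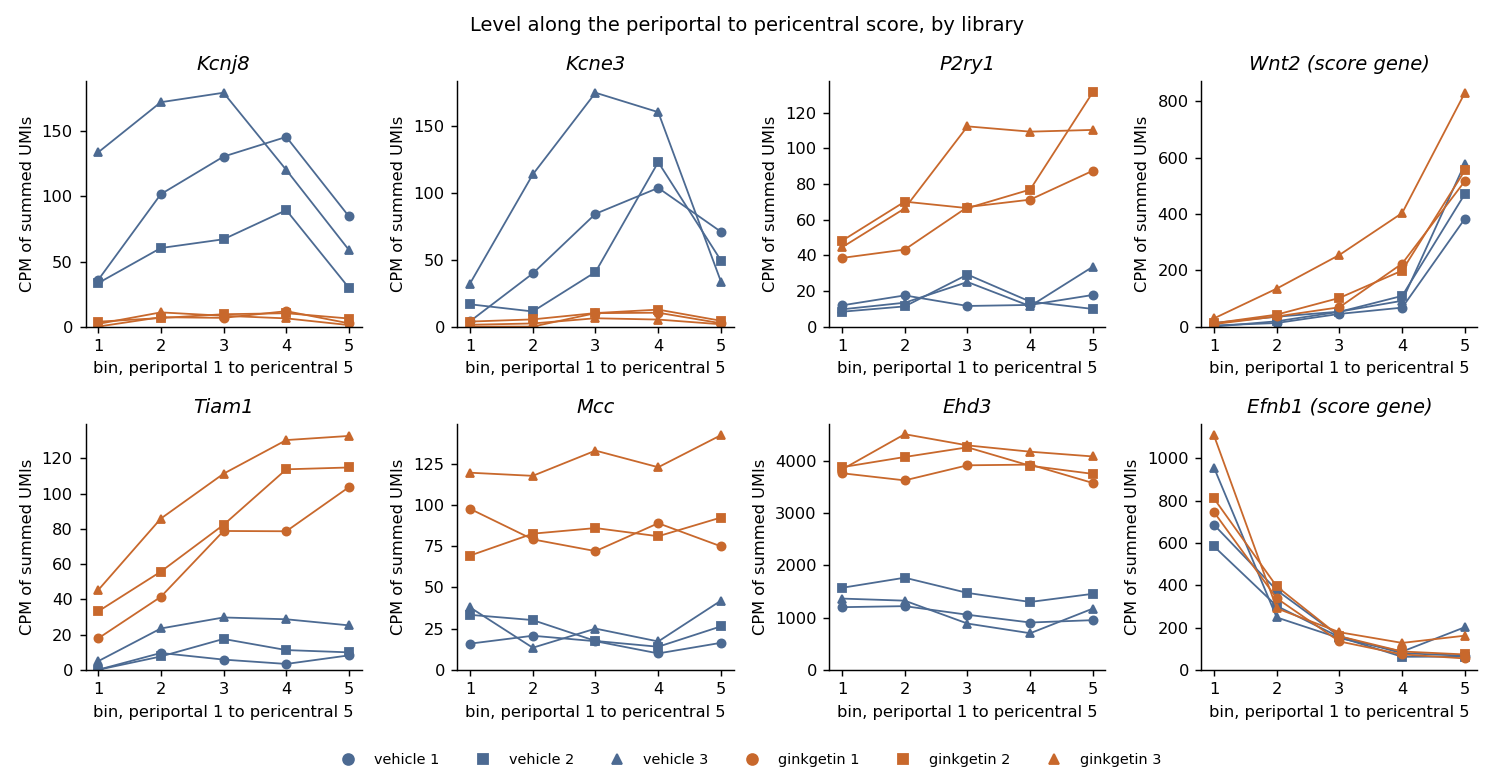
CPM of summed UMIs (y axis, linear from 0) in 5 bins of the pericentral minus periportal score (x axis), with 1 line per library, vehicle blue and ginkgetin orange. Kcnj8 and Kcne3 peak in bins 3 and 4 of the vehicle libraries, P2ry1 and Tiam1 are higher toward bin 5 in ginkgetin, and Wnt2 and Efnb1, 2 of the genes in the score, show its direction.

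Mural cells, the pericytes and smooth muscle cells around vessels, use Kcnj8 and Abcc9 as well, so their markers were counted in endothelial-like cells. Rgs5, Pdgfrb, Notch3 and Cspg4 gave 298, 16, 2 and 1 UMIs over all 7968 cells and Higd1b gave 0, a mean sum of 11.7 CPM in vehicle and 9.30 CPM in ginkgetin. Without the 1.49% to 7.21% of cells that held such a UMI, the log2 ratios of mean CPM were -4.05 for Kcnj8, -3.75 for Kcne3, 2.28 for P2ry1, 2.85 for Tiam1, 1.95 for Mcc and 1.72 for Ehd3, against -4.06, -3.76, 2.32, 2.91, 2.01 and 1.71 with them. This setting was chosen after seeing the data.

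The closest pattern to that of Kcnj8 over the 18 sums of subset and library was Abcc9 (Pearson r = 0.954, among 3329 genes with at least 50 CPM), followed by Lyve1 (0.916), a hyaluronan receptor of sinusoidal cells, and Esm1 (0.888). Abcc9 was also the nearest to Kcne3 (0.885), before Odc1 (0.880) and Ndfip1 (0.855). P2ry1 was most like Dlc1 (0.975), Tmem204 (0.966) and Ehd3 (0.950), and Tiam1 most like Dab2 (0.969), Anapc15 (0.965) and Lbh (0.951). For Mcc the nearest were Map4 (0.938), Fam120a (0.937) and Pitpnm2 (0.922), and for Ehd3 Nrp1 (0.965), Tmem204 (0.964) and Inpp5a (0.953). The 18 points hold both groups, whose contrast chose the 6 genes, and a high r can reflect that contrast. They also share 6 libraries and their depth, so these are descriptions.

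The relatives and partners of the 6 genes were read from lists, with the members left out. Of the 11 inward rectifier and ATP-sensitive channel genes, 7 were in the tables and 3 were tested, and 0 passed the test (edgeR) in the fit without a block. Abcc9 measured 90.3, 60.8 and 248 CPM in vehicle and 9.42, 17.8 and 18.5 CPM in ginkgetin (log2 fold change -3.19, SE 0.49, edgeR adjusted p = 0.0609). Its groups did not overlap, and with the replicate number as a block it fell by 3.10 (edgeR adjusted p = 0.00563). Kcnj2, which encodes the inward rectifier Kir2.1, measured 31.2 ± 22.1 and 5.10 ± 3.18 CPM (SD, n = 3 each), with a log2 fold change of -2.73 (edgeR adjusted p = 0.0975) without and -2.69 (adjusted p = 0.00149) with the block. Kcnj15, another inward rectifier and the third gene tested of that list (named after its values were seen), did not pass and measured slightly more in ginkgetin (11.8 ± 5.83 in vehicle and 15.6 ± 3.50 CPM, SD, n = 3 each; log2 0.30, edgeR adjusted p = 0.813).

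Of the 14 KCNE subunits and their channel partners, 2 were tested and 0 were called without a block. Kcnq1, whose gating Kcne3 alters, measured 27.2 ± 7.58 and 49.3 ± 10.1 CPM (SD, n = 3 each), with an edgeR log2 fold change of 0.72 (adjusted p = 0.130). Of 24 purinergic receptor, ectonucleotidase and Gq genes, 9 were tested and 0 passed both thresholds. Gnaq and Gna11, the G proteins behind P2ry1, had log2 fold changes of 0.39 (adjusted p = 0.301) and 0.49 (adjusted p = 0.571). P2rx4, an ATP-gated channel named after its values were seen, went from 38.5 ± 4.48 to 83.5 ± 11.46 CPM (SD, n = 3 each; log2 0.97, edgeR adjusted p = 0.0495), just under the fold threshold.

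Of 23 Rac exchange factors, GTPases and effectors 19 were tested, with a median log2 fold change of 0.04 beside -0.01 over all 10503 genes. Rac1, the GTPase that Tiam1 activates, was at 586 ± 100.6 and 627 ± 58.2 CPM (SD, n = 3 each; log2 -0.06, adjusted p = 0.980), and the exchange factor Prex2 at 200.3 ± 74.0 and 254 ± 78.9 CPM (log2 0.20, adjusted p = 0.773). Of 18 EHD and recycling genes 11 were tested, with a median of -0.10. Rab11a, a GTPase of recycling endosomes, had a log2 fold change of -0.58 (edgeR adjusted p = 0.597) and Epn1 0.26 (adjusted p = 0.634). With the replicate block Cavin3 of this list passed at -1.66 (adjusted p = 0.0399), but it had 0 UMIs in replicates 1 and 2 of both groups, so the value is that of the replicate 3 libraries. Of 25 beta-catenin pathway genes 17 were tested, with a median of 0.12, among them Ctnnb1, beta-catenin itself, at 0.04 (adjusted p = 0.987) and Apc at 0.23 (adjusted p = 0.554). Nkd1, an inhibitor of Wnt signaling, rose by 1.31 with the block (adjusted p = 0.0114).

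Over the 6 lists 61 genes were tested, and 0 were called by edgeR without a block, where 15 had an unadjusted p under 0.05, beside 13.8% of all 10503 genes. The fit with the replicate block kept more list genes than these 61, and 5 were called, Cavin3 described above among them, against 3.69% of all genes. DESeq2 called 4, against 2.88% of all genes.

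Outside the endothelium the order of cell classes differed from gene to gene. In vehicle libraries Kcnj8 was at 112 ± 67.1 CPM in stellate-like cells, near its sinusoidal level of 121 ± 44.9 CPM (SD, n = 3 each), and the ranges overlapped. NK cell-like cells followed at 27.1 ± 12.3 CPM and T cell-like cells at 14.9 ± 4.35 CPM. In ginkgetin the order changed to stellate-like (249 ± 78.7 CPM), NK cell-like (45.1 ± 14.9 CPM), T cell-like (11.502 ± 5.74 CPM) and then sinusoidal cells (6.99 ± 1.04 CPM), and the T cell-like range overlapped only with the sinusoidal one among these neighbours. In the vehicle stellate-like cells Kcnj8 measured 36.2, 163 and 137 CPM and in the ginkgetin ones 192, 339 and 216 CPM, from 270 stellate-like cells in all. The groups did not overlap, as in 9.91% of the 13304 genes with a mean of at least 1 CPM there, but the edgeR log2 fold change of 1.12 (SE 0.51) did not pass the test (adjusted p = 0.815).

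Kcne3 was highest in cholangiocyte-like cells, the bile duct epithelium, at 187 ± 47.6 CPM in vehicle and 279 ± 68.0 CPM in ginkgetin (SD, n = 3 each; edgeR log2 0.58, SE 0.30, adjusted p = 0.427). The ranges of 136 to 230 and 201 to 319 CPM overlapped there, and stellate-like cells held 0 Kcne3 UMIs in all 6 libraries, which allows 4.88 to 23.1 CPM. P2ry1 was at 20.7 ± 9.86 and 23.6 ± 2.26 CPM in stellate-like cells. Among the 13 cell groups compared, which leave out the 49 neutrophil-like cells, Tiam1 was highest in monocyte-like cells in vehicle, at 28.1 ± 7.30 CPM, followed by dendritic-like cells at 21.2 ± 5.47 CPM, with overlapping ranges. In ginkgetin it was highest in pericentral cells, with monocyte-like cells at 39.7 ± 16.7 CPM (SD, n = 3 each). Mcc was at 36.5 ± 7.70 and 53.2 ± 32.6 CPM in cholangiocyte-like cells.

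**Figure D4:**
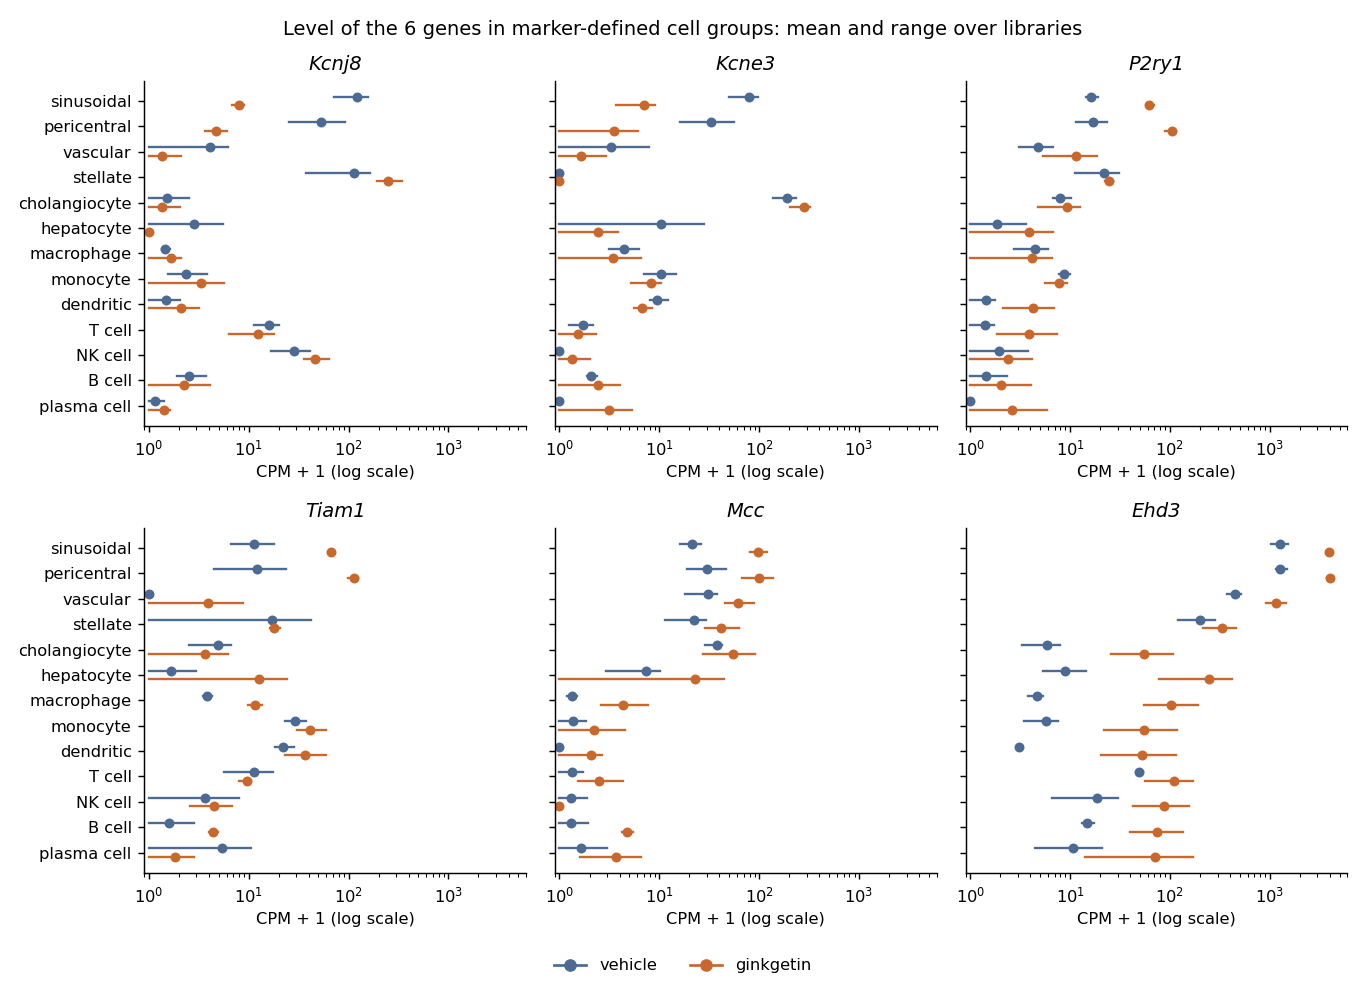
Mean level (points) and range over libraries (lines) of each gene as CPM + 1 on a log axis (x axis) in 3 endothelial subsets and 10 other cell classes (y axis), vehicle in blue and ginkgetin in orange. Kcnj8 is at 112 and 249 CPM in stellate-like cells, Kcne3 at 187 and 279 CPM in cholangiocyte-like cells, and Ehd3 is higher in ginkgetin in every class drawn.

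Of the 60 pairs of a gene with one of 10 other classes, 23 passed the filter on low counts and 1 was called, which is Ehd3 in macrophage-like cells (3.65 ± 0.80 against 100.7 ± 76.5 CPM, SD, n = 3 each; edgeR log2 4.44, SE 0.61). The call was lost in each fit that left out 1 library, with log2 fold changes from 3.53, without ginkgetin replicate 2, to 4.78. That difference was known from the earlier analysis and is given as a description. In macrophage-like cells 3.02% of 10474 genes were called, in cholangiocyte-like cells 0.224% of 8466, and in the other 8 classes 0% by edgeR, with 268 to 1094 genes at an unadjusted p under 0.05 and 4 to 133 called by DESeq2. Tiam1 in macrophage-like cells measured 2.83 ± 0.42 and 10.51 ± 1.97 CPM (SD, n = 3 each; log2 1.499, SE 0.35, edgeR adjusted p = 0.0665), and passed with the replicate block (1.48, adjusted p = 0.0394). Its groups did not overlap, as in 30.4% of 11895 genes. The endothelial markers were also higher in these ginkgetin macrophage-like libraries (610 to 1306 CPM against 176 to 200 CPM), Tiam1 was 7.50-fold higher in the endothelial-like cells of ginkgetin, and the part of endothelial RNA in the level of Tiam1 was not tested. With that block 9 of 25 pairs were called, 8 of them Ehd3, in macrophage-, monocyte-, dendritic-, NK cell-, B cell-, plasma cell-, cholangiocyte- and hepatocyte-like cells (log2 fold changes 2.07 to 4.72, adjusted p from 2.07e-07 to 0.0417). The shares of genes called with the block in these 8 classes were 9.93%, 3.59%, 0.156%, 1.21%, 2.18%, 1.96%, 2.18% and 1.45%, and in T cell-like and stellate-like cells, where 0 pairs were called, 1.13% and 0.148%.

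Ehd3 was higher in ginkgetin in all 10 classes, with only 2 ginkgetin libraries for hepatocyte-like cells. So were the 12 endothelial markers. Beside the sums in macrophage-like cells above, their sum ran in T cell-like cells from 65.8 to 87.8 and from 207 to 911 CPM, and in cholangiocyte-like cells from 70.0 to 80.7 and from 224 to 961 CPM. The share of endothelial-like cells was higher in the same libraries. Set against the endothelial-like level of the same library, the markers in macrophage-like cells stood at 1.27% to 2.03% in vehicle and 4.01% to 8.62% in ginkgetin. Ehd3 stood at 0.262% to 0.393% and 1.48% to 5.13%.

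If the ratio of these percentages is taken, Ehd3 over markers was 0.193 to 0.206 in vehicle and 0.344 to 0.595 in ginkgetin macrophage-like cells. In B cell-like cells it was 0.645 to 1.27 and 0.507 to 0.605. In T cell-like cells it was 4.76 to 8.14 and 0.757 to 2.70, and in stellate-like cells 7.96 to 10.9 and 1.76 to 6.21, so in these 2 classes Ehd3 was above the endothelial markers in vehicle. Ehd3 itself measured 48.1 ± 3.91 and 109 ± 56.5 CPM in T cell-like cells, and 198 ± 80.4 and 330 ± 121 CPM in stellate-like cells (SD, n = 3 each; edgeR log2 1.197 and 0.72, adjusted p = 0.494 and 0.830). Without ginkgetin replicate 2 the log2 fold change in T cell-like cells was 0.54. Ginkgetin replicate 2, which had the highest share of endothelial-like cells (48.8%), also had the highest marker percentage in 10 of 10 classes. The part of endothelial RNA or doublets in the level of Ehd3 in other classes was not tested.

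**Figure D5:**
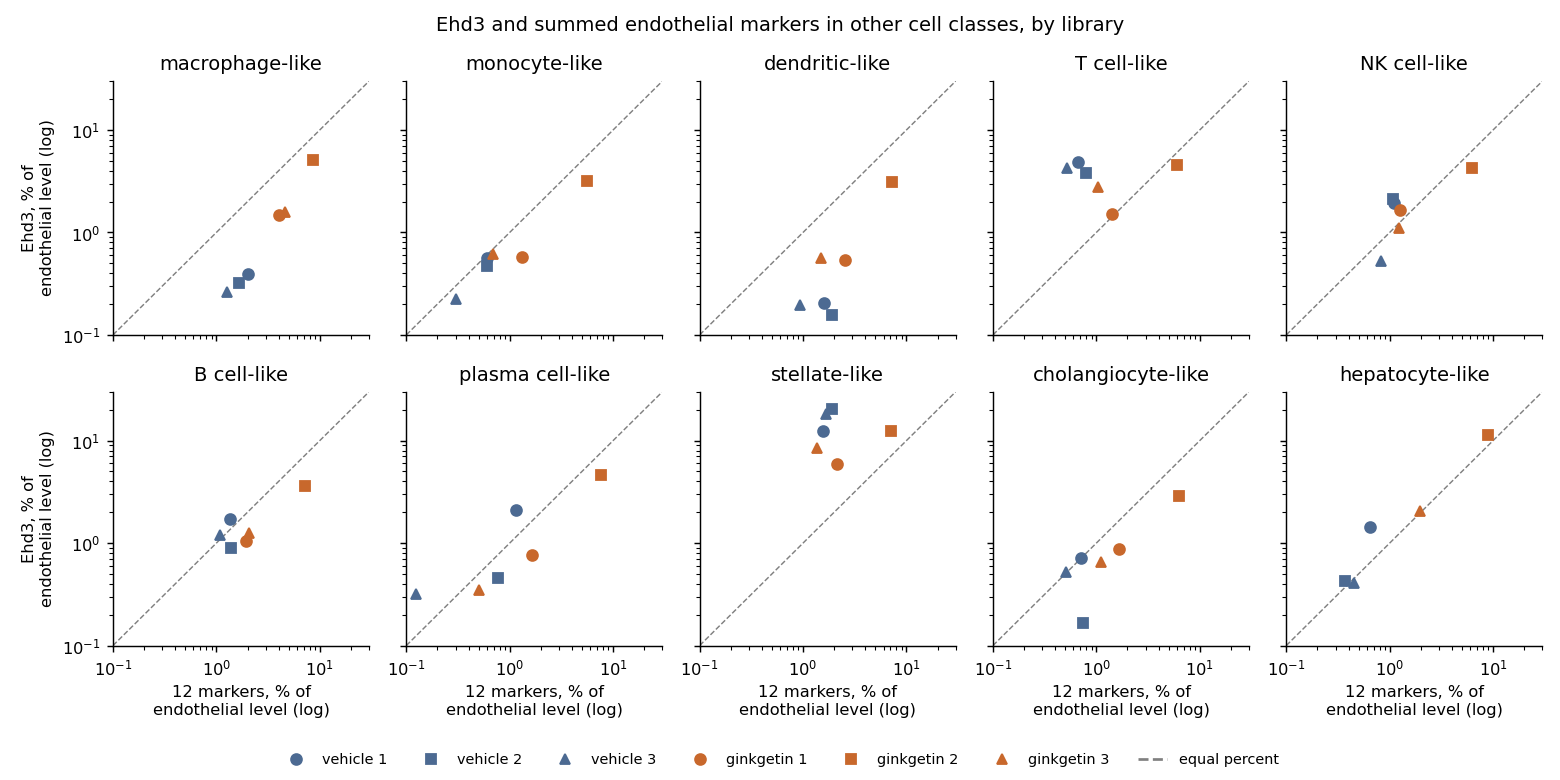
Ehd3 (y axis) against the sum of 12 endothelial markers (x axis) in 10 other cell classes, each as a percent of the level in endothelial-like cells of the same library, on log axes, with 1 point per library and a dashed line where the percentages are equal. T cell-like and stellate-like cells of the vehicle libraries lie above the line, and macrophage-like and dendritic-like cells of all libraries lie below it.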

How the data were processed

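The deposited tables hold unnormalized UMI counts per gene and cell, 1 per library, which the authors made from 10x Genomics reads on GRCm38 (mm10); the aligner is not given in the sources used here. The 6 genes and all lists were chosen with earlier results of these data known. Cells with 250 to 5000 detected genes and under 5% mitochondrial UMIs were kept; this departs from the study's methods, which state these bounds for UMIs. The stated UMI filter, which leaves 16821 cells, was run as an alternative. Doublets were not called or removed. Classes came from marker scores, the mean of ln(1 + UMIs per 10000), with endothelial-like at 1 or more and subsets at vascular 0.5, pericentral 0.5 and sinusoidal 1. Counts summed per library and class (at least 10 cells) were filtered by filterByExpr, normalized by TMM and tested with edgeR 4.0.16's quasi-likelihood test in R 4.3.3 (Benjamini-Hochberg), and called at an adjusted p under 0.05 and a fold over 2. DESeq2 1.42.0, Leiden classes (leidenalg 0.10.2), other gates and filters were alternatives. Scripts were tested on simulated data. The fixed mix weights subset CPM by 1 set of shares. Limits for a count of 0 use 3 counts and cover counting error only.

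Libraries with the same replicate number deviated together across groups (Pearson r of 0.843, 0.868 and 0.962 over 3329 genes). The number was used as a block, although the labels do not say that it pairs libraries. Crossing replicates 1 and 2 gave 0.801 and 0.883, so the values set replicate 3 apart but do not pair replicates 1 and 2. All results with the replicate block rest on this assumed pairing. Named genes were the 6, the called genes or else the 2 highest of each pathway list, and the 3 most alike to each of the 6. P2rx4 and the genes called only with the block were named after their values were seen. One item of the pathway lists is not reported here.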

Additional observations from a re-analysis of the deposited data

Results flagged for a closer look

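Kcnj8 had opposite directions in 2 cell classes. It was lower in ginkgetin in endothelial-like cells and higher in stellate-like cells, where the log2 ratio of mean CPM was 1.15 and every ginkgetin library stood above every vehicle library, as it or the reverse did for 9.91% of 13304 genes in that class. It was 1 of 60 pairs of a gene and another class looked at. The difference between the classes was not tested, and the stellate-like difference alone did not pass edgeR's test (adjusted p = 0.815, and 0.222 with the replicate block).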

How the results depend on the processing

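The 6 genes kept their direction in endothelial-like cells and at a fixed mix under every alternative run. In endothelial-like cells, the study's stated UMI filter gave -3.65 for Kcnj8 and -3.12 for Kcne3, thinning to 1000 UMIs gave -2.90 for Kcne3 and 1.88 for P2ry1, and removing cells with markers of other classes gave 2.32 for P2ry1, all as log2 fold changes. At a fixed mix the UMI filter gave -3.48 for Kcnj8 and 2.48 for P2ry1, thinning -2.95 for Kcne3 and 1.94 for P2ry1, removal of cells with other markers 2.33 for P2ry1 and 3.50 for Tiam1, strict gates 2.04 for P2ry1, and replicates 1 and 2 alone 3.49 for Tiam1. Leaving out 1 library gave 2.07 to 2.29 for P2ry1 and 1.403 to 1.80 for Ehd3 in endothelial-like cells, and 2.60 to 3.56 for Tiam1 at a fixed mix. The sinusoidal share difference turned to 2.08 points in replicates 1 and 2 alone and ran from -6.64 to 0.15 points with 1 library left out, the last without ginkgetin replicate 3.

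Counts of calls depended on the setting. Of all genes in endothelial-like cells 50 were called, against 302 with DESeq2, 19 with no gene filter, 413 with the replicate block, 477 with the barcode set as a block, 322 in replicates 1 and 2 alone, 85 with no cell filter, 13 after thinning, 29 with a gate on pan-endothelial markers, and 0 to 1 with 1 library left out. Of the pathway lists 0 were called, against 4 with DESeq2, 5 with the replicate block, 6 with the barcode set block, 4 in replicates 1 and 2 alone, 2 with the UMI filter and 2 with no cell filter. Of the pairs of a gene and another class 1 was called, against 8 with DESeq2, 2 with no gene filter, 9 with the replicate block, 8 with the barcode set block, 3 in replicates 1 and 2 alone, 3 with Leiden classes and 0 with any library left out. Between pericentral and sinusoidal cells 2 genes were called, against 0 in ginkgetin libraries alone, 1 after thinning and 0 to 2 with 1 library left out, and between vascular and pericentral cells 5, against 3 in vehicle libraries alone, 3 in ginkgetin libraries alone and 3 after thinning. The cause of these differences was not tested. Between subsets, directions turned only for values that had not passed the test: Mcc between pericentral and sinusoidal cells was -0.0181 after thinning, and between vascular and sinusoidal cells 0.46 in vehicle libraries alone; Ehd3 between pericentral and sinusoidal cells was 0.0064 with DESeq2, 0.0053 in ginkgetin libraries alone and -0.0243 to 0.0109 with 1 library left out. The fits on 1 group, the zone bins, replicate 3 alone and the removal of cells with mural markers were chosen after seeing the data. Vascular cells, at 34 to 291 per library, limited what could be seen of Kcnj8, Kcne3, P2ry1 and Tiam1 there.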
